A study of Mus musculus with 6 samples.

Results

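This is an account of 36 genes, the transcription factors Myc and Mycn and 34 factors that build ribosomes, in mouse hematopoietic stem cells (HSCs) with and without the cell cycle kinase CDK6. A gene was taken as measured where the RefSeq accession of an array probe led to its symbol. All 36 had a probe, 49 probes in all, and 35 were bright enough to be tested among 22630 genes. Only Utp18, a small subunit factor with 1 probe, was left out: its probe was above background on 1 of 6 arrays in each channel. HSCs were sorted from the bone marrow of Cdk6-/- and wild-type mice that were untreated or had received polyI:C, an artificial RNA duplex that mimics virus infection, induces interferon and drives resting stem cells into the cell cycle. Each of 6 arrays compared 1 Cdk6-/- sample, labelled with the dye Cy5, with a pool of wild-type cells of the same treatment, labelled with Cy3, so there were 3 untreated and 3 treated Cdk6-/- samples. Per treatment, 1 pool was hybridised 3 times and counts as 1 control sample, and no array had the dyes exchanged. The dose and timing of polyI:C, the age of the mice and the number of mice per sample or pool are not given in the sources used here. Every group was total RNA of sorted cells that was amplified before labelling.

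Ribosomes are made in the nucleolus. RNA polymerase I transcribes the ribosomal RNA precursor, small nucleolar ribonucleoproteins (snoRNPs) modify it, and successive assembly factors fold and cut it into the small and the large subunit. Myc binds DNA with its partner Max at the hexamer CACGTG, called an E-box, and genes of ribosome production at every one of these steps are textbook Myc targets. Resting HSCs are known for low protein synthesis and low Myc activity, and both increase when the cells enter the cycle.

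The E-boxes of the member promoters are printed here because the members share, by choice, the textbook label of Myc targets and no binding was measured. RefSeq promoters (GRCm38.p6, 250 bases before to 50 after the annotated start) were at hand for 30 of the 36 members, and 8 of the 30 (26.7%) held CACGTG, a palindrome that reads alike on both strands. Of 113 other ribosome biogenesis and Myc network genes with a promoter, 17.7% held it, of 10917 tested genes 11.1%, and of all 27025 genes with a promoter 8.09%. The stretch around each match is given 5′ to 3′ on the gene's strand, with the E-box in capitals.
Nop2: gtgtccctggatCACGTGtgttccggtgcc
Utp18: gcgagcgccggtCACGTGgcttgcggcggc
Pes1: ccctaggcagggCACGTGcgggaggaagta
Wdr43: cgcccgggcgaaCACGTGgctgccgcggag
Tsr1: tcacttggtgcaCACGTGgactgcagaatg
Pno1: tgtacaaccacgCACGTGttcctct
Utp20: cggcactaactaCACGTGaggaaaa
Mybbp1a: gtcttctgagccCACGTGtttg
The hexamer began 60 bases before the start of Nop2 at chr6:125131811-125131840 (plus strand) and 20 bases before that of Utp18 at chr11:93885769-93885798 (minus strand). It began 2 bases past the start of Pes1 at chr11:3963965-3963994 (plus strand), 17 past that of Wdr43 at chr17:71616220-71616249 (plus strand) and 24 past that of Tsr1 at chr11:74898092-74898121 (plus strand). In Pno1, at chr11:17211540-17211564 (minus strand), and Utp20, at chr10:88826765-88826789 (minus strand), it lay 37 bases past the start, and in Mybbp1a, at chr11:72441355-72441376 (plus strand), 40 bases past it. A match is a description of these letters, not a binding site. Myc, Npm1, Fbl, Rrp12, Bop1 and Rrs1 were the members with no promoter sequence at hand.

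The arrays were not alike. On 5 arrays between 47.0 and 55.7% of spots were well above background in Cy5 and between 54.4 and 58.7% in Cy3, but on polyI:C array 3, alone on its slide, the shares were 76.5 and 75.6%. Over all tested genes its log2 ratios correlated with those of polyI:C arrays 1 and 2 at r = 0.13 and 0.22, while those 2 arrays correlated with each other at r = 0.56. The log2 ratio of Xist, which silences an X chromosome in females, was -3.98 for the third untreated array, -3.42 for the third treated array and between 0.42 and 1.87 for the other 4. Where leaving out polyI:C array 3 turned a member's response or moved it by more than 1.5 times, the value without that array is given as well. All 12 markers of HSCs and progenitors, among them Kit, Slamf1 and Procr, were above background on all arrays in both channels. Their levels differed between treatments: Procr differed by -2.57 between the pools and -2.48 between Cdk6-/- samples (polyI:C minus untreated), while Ly6a gave 1.33 and 1.44 and Gfi1b 1.67 and 1.70. Of the 12, 7 were below 0 in each genotype, with medians of -0.27 and -0.60, and none passed the test in Cdk6-/- samples (7 at an unadjusted p under 0.05). Markers of B cells, granulocytes and platelets were detected as well, and on untreated arrays those of T and NK cells only in part. As log2 of the summed level, 8 granulocyte markers were at 18.50 to 19.01 in the untreated pool. The 12 HSC and progenitor markers were at 15.38 to 15.54 there. In the treated pool these sums were 16.21 to 16.69 and 15.08 to 15.49. In Cdk6-/- samples they were 17.46 to 18.06 and 15.46 to 16.05 untreated, and 17.27 to 17.83 and 14.805 to 15.53 treated.

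With polyI:C, the ribosome factors had higher measured levels in the RNA of the sorted wild-type cells and of the sorted Cdk6-/- cells. The Cdk6-/- values come from 3 samples and the wild-type values from repeat hybridisations of 1 pool, so their spread cannot be compared between genotypes. Between the pools all 35 tested members had a higher normalized log2 level after polyI:C on their brightest tested probe. The median difference was 0.91, with a range from 0.24 for Nop56 to 1.60 for Pes1. Second probes of Nop56 and Pes1 gave 0.68 and 0.75. Of all genes tested 49.8% lay above 0, with a median of -0.0034. In Cdk6-/- samples 34 of 35 lay above 0, with a median of 0.75 (all genes: 52.6% above 0, median 0.033), and Utp20 alone lay below. Without polyI:C array 3 Utp20 was at 0.023 and all 35 lay above 0, with a median of 0.89. No single member passed the test in Cdk6-/- samples (0 of 35, background 0.163% of genes, limma adjusted p under 0.05), although 9 had an unadjusted p under 0.05, all higher (10.3% of all genes, 5.41% higher). The pools were compared as values only, since 3 hybridisations of 1 pool measure technical spread.

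The median of the members on each array showed the size of this difference against the spread. In the wild-type pool it stood at 10.11, 10.44 and 10.10 before and at 11.13, 11.56 and 10.97 after polyI:C. For Cdk6-/- samples it was 9.91, 10.41 and 10.44 untreated and 11.39, 11.57 and 10.59 with polyI:C. The polyI:C arrays thus lay above the untreated arrays in both channels, with polyI:C array 3 nearest to them. The median of all genes stayed between 9.43 and 9.55 on every array, the arrays having been scaled to a common distribution of average intensity. In bulk RNA of sorted cells, fewer cells of a type and less RNA per cell cannot be told apart.

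**Figure D1:**
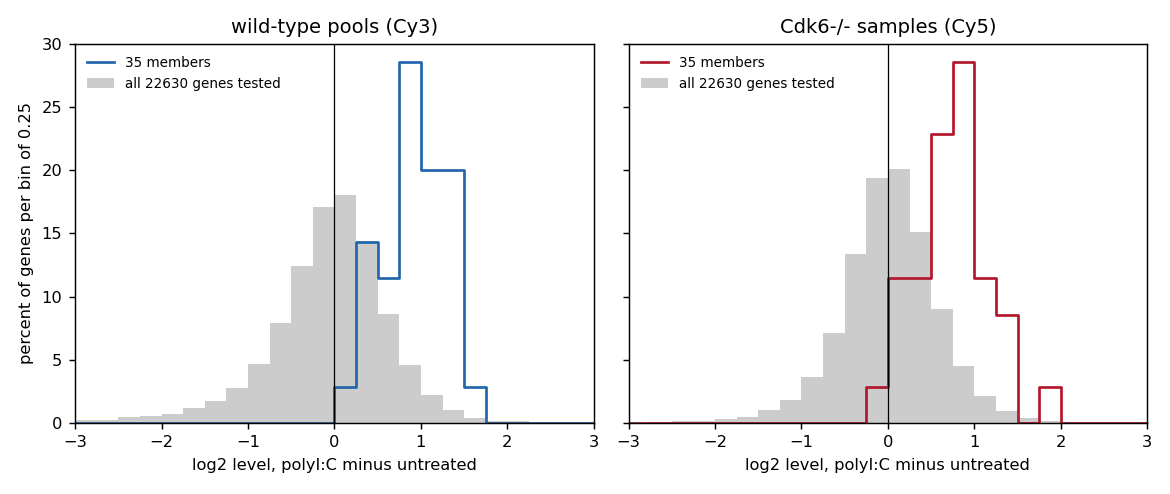
Percent of genes in bins of 0.25 of the log2 level with polyI:C minus untreated (x axis), for the wild-type pools on the left and the Cdk6-/- samples on the right. Grey bars are all 22630 genes tested and coloured lines the 35 tested members, which lie to the right of 0 except for 1 member in Cdk6-/- samples.

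The treatments were also compared array by array. The 3 Cy3 values of a treatment are repeat hybridisations of 1 pool and hold technical spread only, whereas the Cy5 values are 3 samples, so counts without overlap are not comparable between the channels. In Cy3, 29 of 35 members had all 3 polyI:C arrays above all 3 untreated arrays (19.2% of all genes did). In Cy5 14 of 35 did (9.23% of all genes), and no member had all polyI:C arrays below all untreated ones in either channel (23.2% of all genes in Cy3 and 7.75% in Cy5). Without polyI:C array 3 the counts were 35 of 35 in Cy3 (28.6% of all genes) and 30 of 35 in Cy5 (19.6% of all genes). On slide 1, which held untreated arrays 1 and 3 and polyI:C array 1, all 35 members were higher with polyI:C in both channels. On slide 2, with untreated array 2 and polyI:C array 2, the numbers were 33 of 35 in Cy5 and 35 of 35 in Cy3. The slides hold the same arrays as above and add no replication. The share over all genes within a slide was not computed, so these counts lack a background.

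Single members depended more on polyI:C array 3 than the median did. Leaving it out turned the response of Utp20 in Cdk6-/- samples and moved 11 others by more than 1.5 times. These were Nop58 (0.044 to 0.57), Gar1 (0.027 to 0.35), Dkc1 (0.76 to 1.29), Polr1a (0.11 to 0.42), Mybbp1a (0.79 to 1.30), Tsr1 (0.34 to 0.94), Heatr1 (0.35 to 0.72), Ddx10 (0.26 to 0.61), Nop2 (0.77 to 1.28) and Wdr12 (0.58 to 1.33), all larger without it, and Rrp12 (0.85 to 0.56), which was smaller. No member passed the test without this array. Between the pools only Gar1 (0.37 to 0.60), Mybbp1a (0.64 to 0.99) and Nop56 (0.24 to 0.12) moved as far. Without untreated array 3 the responses of Gar1 (-0.097) and Polr1a (-0.19) turned, and those of Nop58 (0.015) and Utp20 (-0.46) moved by more than 1.5 times. Without both arrays 34 of 35 responses lay above 0 and Utp20 was at -0.22.

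**Figure D2:**
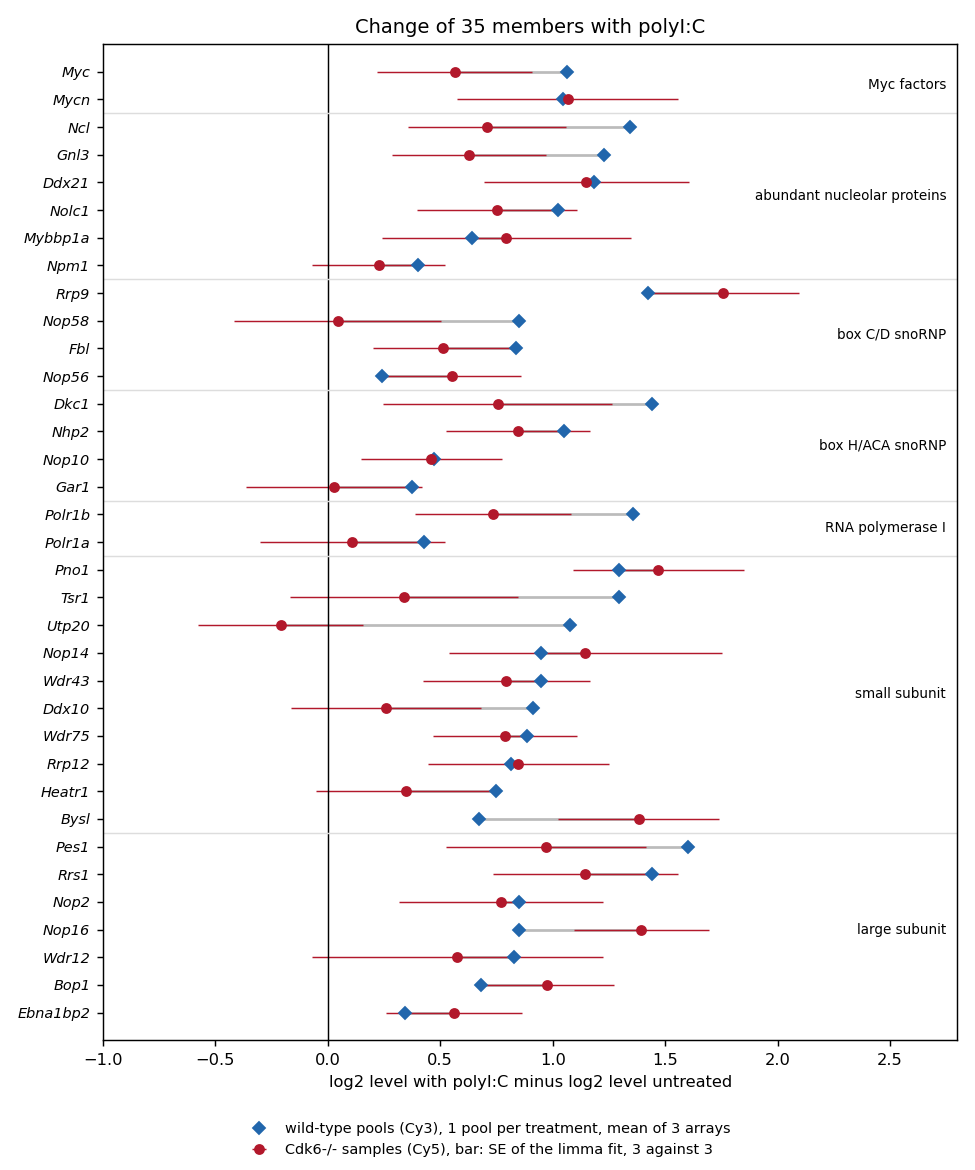
Log2 level with polyI:C minus untreated (x axis) for each tested member, grouped by role and sorted within a role by the wild-type value. Diamonds are the wild-type pools, 1 per treatment, and circles the Cdk6-/- samples with the SE of the limma fit (3 against 3); with all 6 arrays, all diamonds and all circles but that of Utp20 lie right of 0.

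Myc, the E-box factor itself, had log2 levels of 11.85, 11.93 and 11.68 in the untreated pool and 12.80, 12.87 and 12.98 in the treated pool, a mean difference of 1.07. In Cdk6-/- samples its levels were 12.29, 11.91 and 12.20 untreated and 12.88, 13.02 and 12.19 with polyI:C. The pool values did not overlap, while in Cdk6-/- samples polyI:C array 3 lay among the untreated arrays, and the difference there was 0.56 (SE 0.34, limma adjusted p = 0.661). Mycn, the paralog that can stand in for Myc in stem cells, had levels of 10.11, 10.44 and 10.47 in the untreated and 11.19, 11.78 and 11.19 in the treated pool, 1.04 apart in the mean. In Cdk6-/- samples Mycn was at 9.77, 10.18 and 11.16 untreated and 11.54, 12.14 and 10.63 treated, and untreated array 3 and polyI:C array 3 overlapped (difference 1.07 (SE 0.49, limma adjusted p = 0.511)). Without polyI:C array 3 the difference between Cdk6-/- samples was 0.82 for Myc and 1.47 for Mycn, neither past the threshold.

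**Figure D3:**
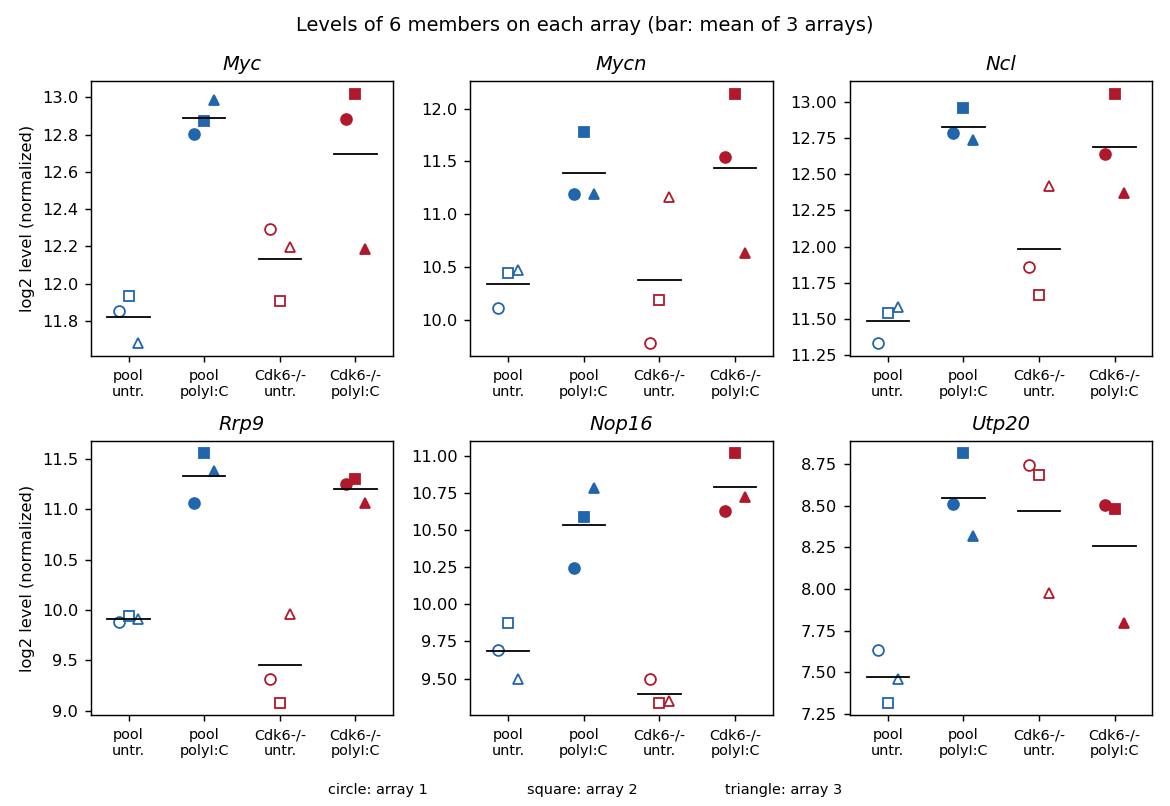
Normalized log2 level (y axis, a separate scale for each gene) of 6 members on each array, untreated (open) and with polyI:C (filled), in the wild-type pools (blue, Cy3) and the Cdk6-/- samples (red, Cy5), with bars at the mean of 3 arrays. Rrp9 and Nop16 separate by treatment in both channels, while Utp20 does so in the pools only and Myc, Mycn and Ncl overlap in Cdk6-/- samples.

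Among the 6 abundant nucleolar proteins all differences were above 0 in both genotypes, with medians of 1.1 between the pools and 0.73 between Cdk6-/- samples, and none passed the test. Ncl (nucleolin), which binds the precursor RNA, was at 11.33, 11.54 and 11.59 in the untreated and 12.79, 12.96 and 12.74 in the treated pool, 1.34 apart. Its second probe gave 0.33, with pool values that overlapped, so the size for Ncl depends on the probe. Ddx21, a nucleolar RNA helicase, had levels of 9.61, 9.16 and 10.44 in untreated and 10.79, 11.57 and 10.29 in treated Cdk6-/- samples. Its groups overlapped at untreated array 3 and polyI:C array 3, and the difference was 1.15 (SE 0.45, limma adjusted p = 0.421). Gnl3 (nucleostemin), a GTPase abundant in stem cells, differed by 1.23 between the pools and 0.63 between Cdk6-/- samples, and Nolc1, a snoRNP chaperone, by 1.02 and 0.75. For Mybbp1a the values were 0.64 and 0.79, and it was among the 6 members whose pool values overlapped. Npm1 (nucleophosmin), a nucleolar histone chaperone, gave the smallest differences of the group with 0.40 and 0.23 on its brightest probe, with levels of 14.81, 14.92 and 14.55 in the untreated and 15.28, 15.11 and 15.09 in the treated pool. The other 4 Npm1 probes gave 0.68 to 1.90 between the pools, so its value depends on the probe.

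Among the snoRNP proteins 8 of 8 differences were above 0 in both genotypes, and none passed the test. Rrp9, which binds the U3 snoRNA in box C/D particles, had levels of 9.31, 9.08 and 9.96 in untreated and 11.26, 11.30 and 11.06 in treated Cdk6-/- samples. All treated samples lay more than 1 log2 unit above the highest untreated one, and its difference of 1.76 (SE 0.34, limma adjusted p = 0.0981) was the largest of all members. It passed the threshold where slide was a random block (1.80, limma adjusted p = 0.0494) and under no other setting run, over which the adjusted p went up to 0.334. In the pools Rrp9 was at 9.88, 9.94 and 9.91 and 11.06, 11.56 and 11.38. The methyltransferase Fbl (fibrillarin) differed by 0.84 between the pools and 0.51 between Cdk6-/- samples. Its partners Nop58 and Nop56 gave 0.85 and 0.24 between the pools, and 0.044 and 0.55 between Cdk6-/- samples. A second Nop56 probe gave 0.68 and 0.59, so the size for Nop56 in the pools depends on the probe. Of the box H/ACA class, Dkc1 (dyskerin), the pseudouridine synthase, differed by 1.44 between the pools. Its level in Cdk6-/- samples was 7.46, 8.19 and 8.63 untreated and 9.35, 9.41 and 7.78 treated (difference 0.76 (SE 0.51, limma adjusted p = 0.709)), with polyI:C array 3 inside the untreated range. For Dkc1 only 2 of 3 untreated arrays were above background in each channel, so it entered the test through the treated arrays alone. Nhp2, a core protein of these particles, separated by treatment in both channels, by 1.05 in the pools and 0.85 in Cdk6-/- samples, and Nop10 did so by 0.47 and 0.46. Gar1, which completes the core, differed by 0.37 between the pools and 0.027 between Cdk6-/- samples, where its groups overlapped.

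Of the RNA polymerase I subunits, Polr1b, the second largest, was at 8.79, 8.44 and 8.51 in the untreated and 9.84, 10.10 and 9.88 in the treated pool, a difference of 1.36. In Cdk6-/- samples its levels of 9.91, 9.09 and 9.17 and 10.19, 10.28 and 9.91 did not overlap, although untreated array 1 and polyI:C array 3 were both at 9.91, and differed by 0.73. Polr1a, the catalytic largest subunit, gave 0.43 and 0.11, and its groups overlapped in both channels.

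All 10 tested small subunit factors were higher in the treated pool, with a median of 0.93, and 9 of 10 in treated Cdk6-/- samples, with a median of 0.79. Pno1, needed for the last cleavage of the small subunit RNA, had levels of 8.83, 9.53 and 9.29 in untreated and 10.73 and 10.65 in treated Cdk6-/- samples. Its spot on polyI:C array 3 had been left out as an outlier, so the difference of 1.47 (SE 0.38, limma adjusted p = 0.214) rests on 5 arrays. Bysl (bystin), a late assembly factor, was at 9.18, 9.89 and 8.91 untreated and 10.46, 10.85 and 10.83 treated, which did not overlap and differed by 1.38 (SE 0.36, limma adjusted p = 0.201). Between the pools Bysl differed by 0.67. Utp20, a very large scaffold protein of the early processome, was at 8.74, 8.68 and 7.97 in untreated and 8.50, 8.48 and 7.80 in treated Cdk6-/- samples, which overlapped. The difference was -0.21 (SE 0.37, limma adjusted p = 0.921) and 0.023 without polyI:C array 3. Its pool values were 7.63, 7.32 and 7.46 and 8.51, 8.81 and 8.32, 1.08 apart and without overlap, with 2 of 3 untreated arrays above background in Cy3. Tsr1, a GTPase-like factor of late assembly, differed by 1.29 between the pools and 0.34 between Cdk6-/- samples, where polyI:C array 3 (7.81) lay under all untreated arrays.

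The early processome proteins Wdr43 and Wdr75 differed by 0.95 and 0.89 between the pools and by 0.79 and 0.79 between Cdk6-/- samples. On these probes neither overlapped in either channel. A second Wdr43 probe gave 1.03 and 0.61, and its groups overlapped in Cy5. Heatr1, another large processome protein, gave 0.75 and 0.35 with overlap in both channels. Nop14, a processome core factor, was at 8.38, 11.11 and 9.69 in untreated Cdk6-/- samples, the widest spread of any member in that group, and at 10.94, 11.12 and 10.56 with polyI:C. Ddx10, a helicase, differed by 0.91 between the pools and 0.26 between Cdk6-/- samples. Rrp12, a factor of late maturation and export, was at 7.45, 7.40 and 7.42 in the untreated and 8.07, 8.00 and 8.63 in the treated pool, and differed by 0.81 and 0.85 in the pools and Cdk6-/- samples. Utp18 stayed between 6.77 and 7.14 in Cy5 and between 6.25 and 6.97 in Cy3, not well above background.

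Large subunit factors were higher with polyI:C in 7 of 7 cases in both genotypes, with medians of 0.85 between the pools and 0.97 between Cdk6-/- samples. The levels of Nop16 in Cdk6-/- samples were 9.50, 9.34 and 9.35 untreated and 10.63, 11.02 and 10.72 treated, 1.39 (SE 0.30, limma adjusted p = 0.132), and in the pools 9.69, 9.88 and 9.50 and 10.24, 10.59 and 10.78. Pes1, Bop1 and Wdr12 form the PeBoW complex, which is needed for the large subunit. Pes1 was at 9.39, 9.50 and 9.06 in the untreated and 10.88, 10.94 and 10.94 in the treated pool, 1.60 apart, while its second probe gave 0.75. Bop1 differed by 0.68 between the pools and 0.97 (SE 0.30, limma adjusted p = 0.288) between Cdk6-/- samples, with no overlap in either. Wdr12, above background on 2 of 3 untreated arrays in Cy5, gave 0.83 and 0.58, and polyI:C array 3 (7.25 in Cy5) was its lowest value of all.

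Rrs1, which helps to place the small ribosomal RNA of the large subunit, was at 7.98, 8.10 and 8.76 in untreated and 9.70, 9.88 and 8.70 in treated Cdk6-/- samples, 1.15 (SE 0.41, limma adjusted p = 0.372). Between the pools it differed by 1.44, without overlap. Nop2, a methyltransferase of the large ribosomal RNA, differed by 0.85 and 0.77. Ebna1bp2, an early large subunit factor, gave 0.34 between the pools and 0.56 between Cdk6-/- samples on its brightest probe. Its other probes gave 1.28 and -0.30 between the pools, so that the direction for Ebna1bp2 in the pools depended on the probe.

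Of the 129 other tested genes of Myc biology and ribosome production, listed with earlier results known, 113 were higher in the treated pool (median 0.50) and 101 in treated Cdk6-/- samples (median 0.43). None of the 129 passed the test in Cdk6-/- samples, and 21 had an unadjusted p under 0.05, 20 of them higher, against the 10.3% of all genes given above. By step, the medians for the pools and the Cdk6-/- samples were 0.57 and 0.64 for 41 small subunit factors and 0.53 and 0.45 for 47 large subunit factors. For 19 genes of the RNA exosome and snoRNP assembly they were 0.53 and 0.44, and for 13 genes of the RNA polymerase I machinery 0.27 and 0.094. The 9 genes of the Max network, Myc's partners and antagonists, did not share the shift, with medians of -0.065 and -0.068. Max, the partner of Myc, differed by -0.020 and 0.096. The antagonist Mxd1 had the lowest pool value of that list, at -1.85. Members with and without CACGTG had pool medians of 1.08 (7 tested) and 0.90 (22 tested), and medians in Cdk6-/- samples of 0.79 and 0.72, given as a description only.

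Levels of other cells' markers differed between the treatments as well. The log2 of the summed level of 8 B cell markers went from 14.62 to 14.79 in the untreated pool hybridisations to 12.15 to 12.27 in the treated ones, and that of 8 granulocyte markers from 18.50 to 19.01 to 16.21 to 16.69. In Cdk6-/- samples the ranges were 12.64 to 13.48 and 11.91 to 12.33 for B cells, and 17.46 to 18.06 and 17.27 to 17.83 for granulocytes. The sum of 6 platelet and megakaryocyte markers was higher with polyI:C, at 13.18 to 13.27 and 14.58 to 14.88 in the pools, and 12.20 to 13.64 and 14.995 to 15.33 in Cdk6-/- samples. Of these 6 genes, 5 were higher in the treated pool and Ppbp differed by -1.05. The sum of 7 T and NK cell markers was higher too, at 12.53 to 12.96 and 13.87 to 14.24, and 12.11 to 12.63 and 13.59 to 13.93. The sum of 7 stromal and endothelial markers lay at 13.72 to 13.84 in the untreated and 11.18 to 11.28 in the treated pool, and at 12.22 to 12.77 and 10.95 to 11.42 in Cdk6-/- samples. That of 8 erythroid markers lay at 14.78 to 14.88 and 14.02 to 14.07 in the pools, and at 14.07 to 14.41 and 13.07 to 13.41 in Cdk6-/- samples, where Slc4a1 fell by 3.75 (limma adjusted p = 0.0259). Of the 8 erythroid markers, 3 were higher in the treated pool and 2 in treated Cdk6-/- samples, with Car1 highest at 1.18 and 0.42. For 6 monocyte and macrophage markers the ranges were 14.31 to 14.36 and 13.56 to 13.85 in the pools, and 13.91 to 14.14 and 13.46 to 14.13 in Cdk6-/- samples. Igll1 of the B cell list was not above background on any treated array in Cy3. On all untreated arrays 1 of 7 T and NK cell markers was above background in Cy5 and 3 of 7 in Cy3. On all treated arrays 2 of 8 B cell markers were in Cy5 and 4 of 8 in Cy3, and 2 of 7 stromal markers in each channel. These sums rest in part on values near background. Markers of cycling cells (10 genes, among them Mki67 and Top2a) summed to 14.44 to 14.62 and 14.39 to 14.64 in the pools, and to 13.46 to 13.77 and 13.75 to 14.20 in Cdk6-/- samples. The part of these cells in the difference of the ribosome factors was not tested.

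Genotype was compared through the ratio of Cdk6-/- to wild-type signal on each array. In untreated HSCs the ribosome factors did not move in a single direction. Past the threshold 4 were higher and 2 lower in Cdk6-/- samples. That is 6 of 35 against a background of 13% of all genes (3.05% higher and 9.93% lower). An unadjusted p under 0.05 was found for 11 (28.5% of all genes). The median over members was 0.075 and that over all genes -0.047, and 21 of 35 members lay above 0 (45.3% of all genes). Called higher were Utp20, Polr1b, Nop58 and Tsr1, and called lower were Nop56 and Bysl. Since all arrays had the same dye orientation, a dye bias of a probe cannot be told apart from a difference of genotype in these ratios, and the spread among wild-type mice does not enter the test.

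Utp20 had log2 ratios of 1.11, 1.37 and 0.51 in untreated HSCs, with a mean of 0.997 (SE 0.20, limma adjusted p = 0.0123). Polr1b had 1.11, 0.65 and 0.66 and a mean of 0.81 (SE 0.18, limma adjusted p = 0.0157), and Tsr1 had 0.96, 0.58 and 0.54 and a mean of 0.69 (SE 0.18, limma adjusted p = 0.0336). All 3 arrays were above 0 for each of these genes. The core proteins of box C/D particles split: Nop58 had ratios of 0.72, 0.76 and 0.91 (mean 0.80 (SE 0.18, limma adjusted p = 0.0177)), and its partner Nop56 had -0.87, -0.72 and -0.65 (mean -0.75 (SE 0.16, limma adjusted p = 0.0155)). A second Nop56 probe gave -0.22, and with the mean of both probes the call was lost (-0.48, limma adjusted p = 0.0634). Over all alternatives run for Nop56 the adjusted p ranged from 0.013 to 0.666. Bysl had -0.85, -0.23 and -1.09, all below 0 (mean -0.72 (SE 0.20, limma adjusted p = 0.0373)). The mean untreated log2 level of Nop56 was 12.36 in Cdk6-/- samples and 13.11 in the pool.

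**Figure D4:**
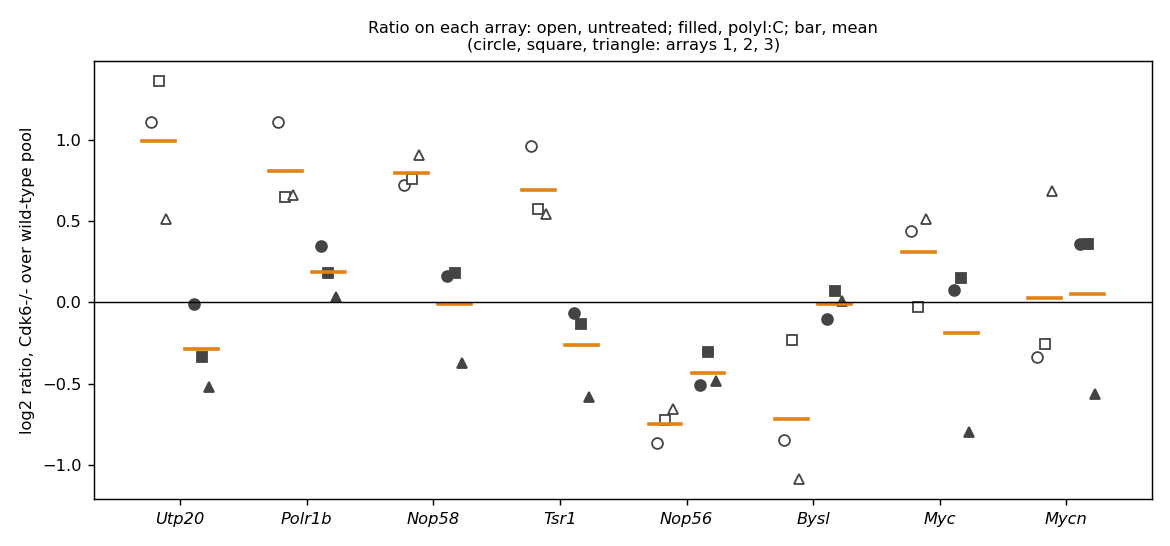
Log2 ratio of Cdk6-/- sample over wild-type pool (y axis) on each untreated (open) and polyI:C (filled) array for the 6 members past the threshold in untreated HSCs and for Myc and Mycn. Bars are means of 3 arrays, and each gene is shown by its brightest tested probe. Utp20 and Tsr1 lie above 0 on all untreated and below 0 on all polyI:C arrays.

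These calls depended on single arrays, on the slide and on the scaling. With slide as a random block, and likewise in a fit to the untreated arrays alone, Nop58, Polr1b, Utp20 and Nop56 were called, and Tsr1 (limma adjusted p = 0.0553 and 0.0650) and Bysl (limma adjusted p = 0.0549 and 0.0954) were not. In the deposited values without centring Nop56 and Bysl lost their calls. Without untreated array 1, 2 or 3 the number of members called was 0, 2 and 1, and without replicate 3 of both groups 3 (Nop58, Utp20 and Nop56). With background-corrected signals centred on the array median in place of loess, all genes shifted up (median 0.30), the median over members was 0.49, and 11 members were called higher, Myc among them (0.82, limma adjusted p = 0.0326), and 0 lower, where Nop56 (-0.13) and Bysl (-0.36) lost their calls. Under that scaling 6206 of all genes were called, 4876 of them higher, against 2939 and 691.

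Myc itself had ratios of 0.44, -0.027 and 0.52 in untreated HSCs (mean 0.31 (SE 0.22, limma adjusted p = 0.394)) and Mycn -0.34, -0.26 and 0.69 (mean 0.03 (SE 0.25, limma adjusted p = 0.952)), and the Mycn value rested on untreated array 3. Ncl (0.50), Dkc1 (0.50), Rrp12 (0.52) and Npm1 (0.39) had an unadjusted p under 0.05 on the higher side and Bop1 (-0.43) on the lower side, without passing the adjusted threshold. Of the 4 other Npm1 probes 1 was called higher when every probe was tested on its own (0.84, limma adjusted p = 0.0332). The remaining members lay between -0.50 for Nop14 and 0.42 for Ddx10. Without untreated array 3 the ratios of 15 members moved by more than 1.5 times, and those of Gnl3 (-0.014), Mycn (-0.30) and Nolc1 (-0.048) turned. Of the 129 other genes of the pathway 4 were called higher and 2 lower, against 3.05 and 9.93% of all genes. They included Exosc2 of the RNA exosome (0.81), the Max-binding repressors Mnt (0.65) and Mxd3 (-0.78), and the ribosomal RNA methyltransferases Ftsj3 (0.66) and Bud23 (-0.63). On the same arrays 6 of 9 tested markers of cycling cells were called lower in Cdk6-/- samples (9.93% of all genes), with a median of -0.78. Of the B cell and granulocyte markers 6 of 8 and 5 of 8 were called lower, with medians of -1.54 and -0.99. Called lower too were 6 of 6 tested stromal and endothelial markers (median -1.36), 3 of 8 erythroid, 3 of 6 platelet and 2 of 6 monocyte markers. So were 1 of 12 HSC markers and none of 7 T and NK cell markers (2 at an unadjusted p under 0.05). Below 0 at any p lay 9 of 9 cycling cell, 8 of 8 B cell, 8 of 8 granulocyte and 6 of 6 stromal markers. The same held for 6 of 8 erythroid, 4 of 6 platelet, 6 of 6 monocyte, 4 of 12 HSC and 5 of 7 T and NK cell markers. Their part in the ratios of the ribosome factors was not tested.

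After polyI:C no member differed between genotypes past the threshold (0 of 35, background 0.968%; 2 at an unadjusted p under 0.05, 13.4% of all genes). The median over members was -0.15 and 30 of 35 lay below 0 (all genes: median -0.019, 47.2% above 0). PolyI:C array 3 carried most of this: without it 18 members moved by more than 1.5 times and 8 turned, 13 of 35 lay above 0 and the median was -0.033, and with centring in place of loess the median was 0.30 (all genes 0.21), with Npm1 called higher. The largest values were those of Rrp12, with ratios of 0.54, 0.39 and 0.72 (mean 0.55 (SE 0.21, limma adjusted p = 0.294)), and Nop56, with -0.51, -0.31 and -0.49 (mean -0.44 (SE 0.16, limma adjusted p = 0.279)). Rrp12, Polr1b and Npm1 were above 0, and Nop56, Bop1 and Wdr75 below 0, on all 6 arrays of both treatments. For Npm1 this held for the brightest probe, while other probes had values below 0 after polyI:C, such as -0.075 and -0.32. Gnl3 followed with -0.11, -0.50 and -0.53 (mean -0.38 (SE 0.20, limma adjusted p = 0.454)) and Rrs1 with -0.11, -0.16 and -0.85 (mean -0.37 (SE 0.21, limma adjusted p = 0.483)), both below 0 on all 3 polyI:C arrays. Without array 3 these means were -0.30 and -0.13. Wdr12 had -0.0012, 0.047 and -1.02, so that its mean of -0.33 came from polyI:C array 3 alone. For Myc the ratios were 0.079, 0.15 and -0.80 (mean -0.19 (SE 0.22, limma adjusted p = 0.762)) and for Mycn 0.36, 0.36 and -0.56 (mean 0.051 (SE 0.25, limma adjusted p = 0.956)), and without array 3 the Myc mean was 0.11. Among the 129 other genes of the pathway none passed, 4 had an unadjusted p under 0.05, and the median was -0.10. On the treated arrays 8 of 8 granulocyte markers were above 0 (median 1.02, none past the threshold, 8 at an unadjusted p under 0.05). All 8 erythroid markers lay below 0 (median -1.002), and 3 of 8 were called lower (0.65% of all genes). The monocyte marker Marco was called higher (1.75). Medians were 0.026 for B cell, -0.11 for stromal and -0.44 for cycling cell markers.

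**Figure D5:**
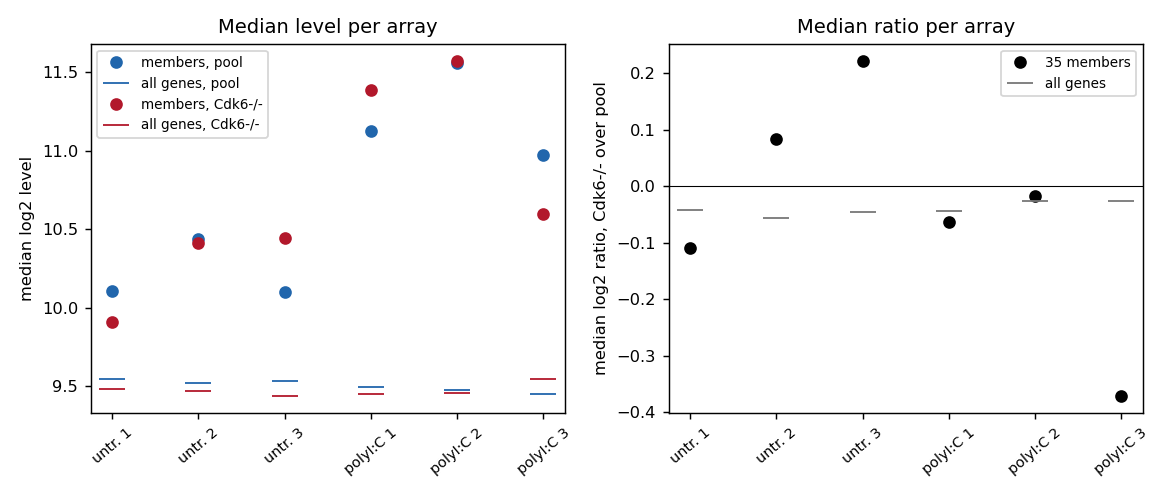
Left, median log2 level of the 35 members (circles) and of all genes (bars) on each array, in the wild-type pool (blue) and the Cdk6-/- sample (red). Right, median log2 ratio of Cdk6-/- over pool; polyI:C array 3 has the lowest member median, at -0.37, while the medians of all genes lie between -0.056 and -0.026.

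Whether the genotype ratio depended on treatment was tested as the difference of the 2 ratios, in which a dye bias cancels. No member passed (0 of 35, background 1.79%), and 8 had an unadjusted p under 0.05, 7 of them with a lower ratio after polyI:C (16.5% of all genes, 5.34% lower). Over members the median difference was -0.20 and over all genes 0.041, and 11 of 35 members lay above 0 (53.9% of all genes). Utp20 came nearest, with ratios of 1.11, 1.37 and 0.51 untreated and -0.0098, -0.34 and -0.52 treated, a difference of -1.29 (SE 0.29, limma adjusted p = 0.0576). It passed with the mean of all probes of a gene (-1.29, limma adjusted p = 0.0460) and with slide as a random block (-1.28, limma adjusted p = 0.0477). Utp20 has 1 probe, so the mean over probes changed only the values of other genes. Over all alternatives run the adjusted p for Utp20 ranged from 0.046 to 0.172. Without polyI:C array 3 its difference was -1.17. Tsr1 had ratios of -0.063, -0.14 and -0.58 after polyI:C and a difference of -0.95 (SE 0.26, limma adjusted p = 0.0949). On its brighter probe Tsr1 was, like Utp20, above 0 on all untreated and below 0 on all treated arrays. Its other probe was at 0.225 on polyI:C array 1 and differed by -0.74. Nop58 (0.16, 0.18 and -0.37 after polyI:C) differed by -0.81 (SE 0.25, limma adjusted p = 0.138).

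Dkc1 had ratios of 0.25, 0.36 and 0.89 untreated and 0.19, -0.026 and -0.72 treated and differed by -0.69 (SE 0.31, limma adjusted p = 0.3), or -0.42 without polyI:C array 3. In the other direction Bysl, at -0.10, 0.069 and 0.0069 after polyI:C, differed by 0.71 (SE 0.28, limma adjusted p = 0.223). Without overlap between the treatments were 9 members with lower ratios after polyI:C (8.48% of all genes), namely Ncl, Gnl3, Nop58, Dkc1, Gar1, Polr1b, Heatr1, Utp20 and Tsr1. In 5 members the treated ratios were all above the untreated ones (14.4% of all genes): Nop56, Bysl, Bop1, Nop16 and Ebna1bp2. These lists rest on the brightest probe of each gene. The other probes of Ncl (difference -0.12) and Nop56 (-0.091) overlapped. For Ebna1bp2, 1 other probe separated in the opposite direction (-0.59) and the remaining probe overlapped (0.70). Myc (-0.50) and Mycn (0.021) overlapped. Of the 129 other genes of the pathway none passed, and 10 had an unadjusted p under 0.05, 7 of them lower. Past the threshold (1.6% of all genes), the ratio rose between treatments for 4 of 8 granulocyte (median 1.93) and 2 of 8 B cell markers (1.45). It also did for 2 of 6 stromal (1.26), 2 of 6 platelet (0.64) and 1 of 6 monocyte markers (1.08). Differences above 0 at any p were found for 8 of 8 granulocyte, 8 of 8 B cell, 6 of 6 stromal, 6 of 6 platelet and 5 of 6 monocyte markers. The part of these cells in the members' ratios after polyI:C and in this difference was not tested.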

How the data were processed

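Cdk6-/- and wild-type HSC RNA was measured on 6 Agilent 2-colour arrays, 3 per treatment, and samples were grouped by the labelled treatment. The RNA had been amplified with TransPlex WTA2 and coupled to platinum-linked dyes, per the labels' protocols. Per the file headers, spots were read with Agilent Feature Extraction 11.5.1.1, and 5 of 6 headers name the mouse build mm9. The deposited files hold spot and background intensity, processed intensity, a log10 ratio of red to green, flags, and a log2 value table. That deposited log2 table was the log2 ratio of processed Cy5 to Cy3 within 2.52e-06 for 55249 probes with 1 spot, with no centring. The authors' own test of genes was not given in the sources used here.

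Median intensities were corrected with normexp (offset 50) and normalized by loess within arrays, and levels by quantile normalization of average intensity between arrays (limma 3.58.1, R 4.3.3, statmod 1.5.0). Control and outlier spots (0.657%) were left out. Of 55681 probes, 31802 were well above background in a channel on all 3 arrays of a group and were tested, and the brightest probe stood for a gene. Ratios against 0, their difference, and Cy5 levels by treatment were fitted with lmFit and eBayes over all 22630 genes (4 residual degrees of freedom), with Benjamini-Hochberg adjustment and a threshold of 0.05. Errors are standard errors of these fits (SE). The number of arrays limits the precision: 3 against 3 cannot give an exact permutation p under 0.1. Symbols came from RefSeq (22244 of 23839 accessions led to 1 symbol). The fits were checked on simulated data.

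The series calls the 3 samples of a group biological replicates; array numbers follow deposition order and pair nothing. The members and gene lists were chosen with earlier results of these data known. Named with all array values were Myc, Mycn, every member past the threshold and, where fewer than 5 passed, the 5 largest changes. Alternatives covered background, normalization, dim probes, probe choice, slide and left-out arrays.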

Additional observations from a re-analysis of the deposited data

How the results depend on the processing

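In untreated HSCs the number of members called between genotypes was 6, ranged from 0 to 6 when 1 array was left out, was 3 without replicate 3 of both groups, and was 11, all higher, with median centring in place of loess, an alternative added after seeing the data; the median over members was then 0.49. After polyI:C that centring gave 1 call and a median over members of 0.30, against 0 calls and -0.15. For the difference of the ratios the count was 1 instead of 0 with the mean of all probes and with slide as a random block, and the latter also gave 1 call instead of 0 for the polyI:C response in Cdk6-/- samples. For the wild-type pools the median over members was 1.19 with processed signals scaled to the 75th percentile, against 0.91; leaving out 1 array gave 0.85 to 1.11. The median response in Cdk6-/- samples kept its sign under every alternative run, from 0.50 to 0.98. The cause of these shifts was not tested.

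Over the 35 tested members the sign held under every alternative run for 35 differences between the pools, 28 responses in Cdk6-/- samples, 18 ratios in untreated HSCs, 7 ratios after polyI:C and 24 differences of ratios. Among the members named with all array values by the rule, and Utp20, added after its values were seen, signs turned for Mycn, Myc, Nop56, Gnl3, Wdr12 and Utp20 in single comparisons, none of them called. The response of Utp20 was -0.46 to 0.023 when 1 array was left out. Mycn in untreated HSCs was -0.13 with processed signals, -0.028 with slide as a random block, -0.30 without replicate 3 of both groups and -0.30 to 0.22 when 1 array was left out. After polyI:C it was -0.070 with processed signals and -0.10 to 0.36 when 1 array was left out. Its difference of ratios was -0.0088 in the deposited table and -0.16 to 0.35 when 1 array was left out. After polyI:C Myc was 0.46 with median centring, -0.36 to 0.11 when 1 array was left out and 0.11 without replicate 3 of both groups. With median centring Nop56 was 0.30 and Gnl3 0.24. Wdr12 was -0.51 to 0.023 when 1 array was left out and 0.023 without replicate 3 of both groups.

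No paired analysis was possible because the labels give no replicate numbers that the groups share. Signal near background limits Utp18, Utp20, Dkc1 and Wdr12, and 1 pool per treatment gives the wild-type comparison no test. All ratios share 1 dye orientation.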
